A study of Mus musculus with 4 samples.

Results

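Solute carriers are the membrane proteins that move sugars, amino acids, metals, ions, vitamins and metabolites across the plasma membrane and the membranes of organelles, and their genes are numbered by family as Slc followed by a digit. The members described here are the genes with such a symbol in the deposited table of genes related to differential N6-methyladenosine (m6A) peaks. The symbol was taken from the table, or from the Ensembl gene ID where the table gives none, and Slc30a8 and Slc2a2 were left out by the rule. Both are in the table, and counts of members and carriers leave them out unless they are said to be kept. The rule gave 102 of the 9225 distinct gene IDs of the table. The members were thus chosen by a measured outcome, the authors' call of a differential peak between GR and control. Of the 102, 99 are counted as carrier genes, among them Slc3a1 and Slc3a2, which encode heavy chains of amino acid transporters. Slc39a1-ps and Slc22a13b-ps are pseudogenes, and Slc7a6os is a gene named for lying opposite Slc7a6. Slc39a1-ps was the 1 member that the table gives without a symbol.

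m6A is a methyl mark on RNA that is placed by a methyltransferase complex, removed by demethylases and bound by reader proteins, and it can alter the stability and translation of a transcript. The mark was mapped in MIN6, a line from a mouse insulinoma that stands in for pancreatic beta cells and is labelled C57BL/6. Dishes of cells were transfected with 10 µg of control vector or of GR expression vector, and RNA was extracted after 24 hours. The labels give GR as an abbreviation only, and it is kept so here. For control and for GR there was 1 input and 1 m6A antibody library, 4 libraries in all, and the labels name no added hormone or drug.

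The tables used compare GR with control and hold no value per library. The depth is therefore unknown, there is no replicate check, and the RNA level of a transporter could not be set beside its m6A. For the members the table gives no direction, size or position of any peak, so whether a transcript gained or lost m6A with GR is not given. The deposited table with fold changes holds autophagy genes and 0 Slc genes. Being listed is also an incomplete sign of a differential peak, because 13 of the 22 genes with a deposited autophagy peak were not in the gene table. Membership was what chose these genes, so their counts and shares are descriptions and were not tested.

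Beta cells depend on carriers at several steps. Glucose enters by facilitative transporters, mitochondrial carriers pass the metabolites and nucleotides that couple glucose oxidation to insulin release, zinc transporters load the insulin granule, and amino acid carriers feed both secretion and the growth pathway governed by mTOR. Which carriers appear in the table is given below by what they move.

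Solute carrier genes were listed about as often as other genes. Of 365 carrier genes of the reference, 99 were in the table, or 27.1% (exact Clopper-Pearson 95% interval 22.6% to 32%). Of 20946 protein-coding genes with a symbol in the name table, 26.4% were listed, so the share of the carriers lies near the background. All intervals given here cover counting error only and treat genes as independent. Other transport families had shares on either side, with 25 of 94 potassium channel genes named Kcn (26.6%), 21 of 86 Atp genes (24.4%), 7 of 50 ATP-binding cassette genes (14%, 5.82% to 26.7%) and 7 of 21 Mfsd genes of the major facilitator fold (33.3%, 14.6% to 57.0%). The Slco genes, organic anion transporters that belong to the solute carriers under another name, had 2 of 14.

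**Figure D1:**
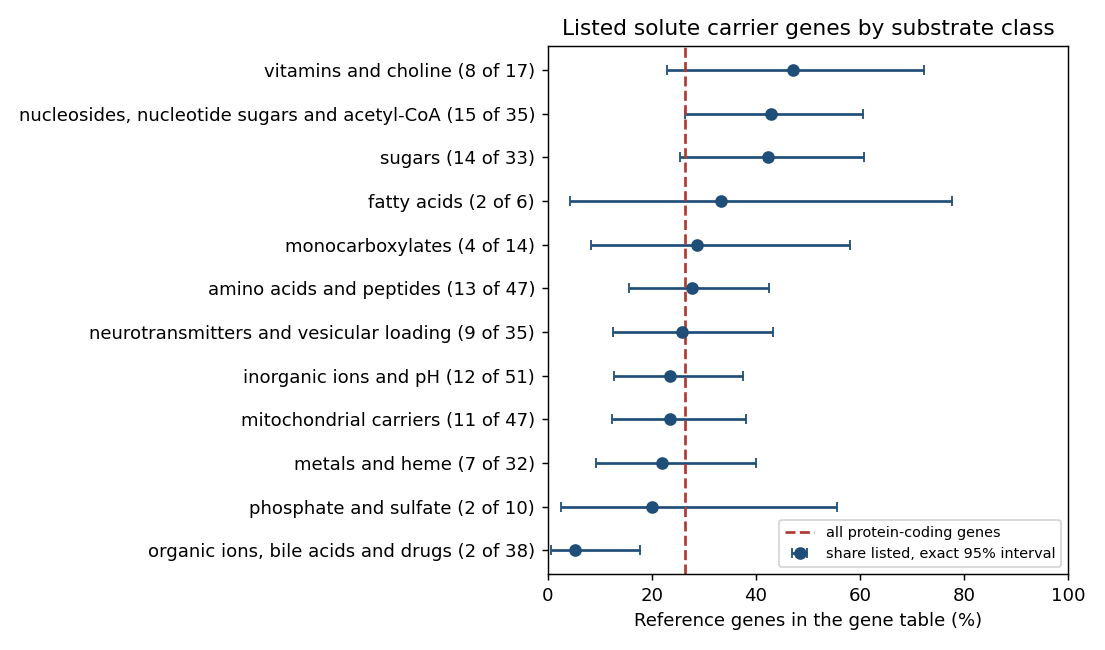
Share of the reference carrier genes of each substrate class that is in the gene table (x axis, percent), with the numbers beside each class, exact 95% intervals as bars and the share of all protein-coding genes (26.4%) as a dashed line. The families grouped under vitamins and choline, nucleosides and nucleotide sugars, and sugars have the highest shares, with intervals that include the dashed line. For nucleosides and nucleotide sugars the interval includes the line only just, with a lower bound of 26.3%. Those grouped under organic ions, bile acids and drugs have the lowest, at 5.26%, with an interval below it. Slc2a2 and Slc30a8, left out by the rule, are not counted.

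By substrate class the shares ran from 5.26% to 47.1%, but for 11 of the 12 classes the interval included the 26.4% of all protein-coding genes. The exception was the class with the lowest share. Slc2a2 and Slc30a8, which are in the gene table, are not counted here, and no class interval was computed with them. The lower bound of the nucleoside and nucleotide sugar class, 26.3%, is only just under 26.4%. That of the sugar class, 25.5%, also lies close to it, so the place of the sugar class may rest on leaving Slc2a2 out. Classes were set by family number, so each can hold carriers of other substrates: the sugar class counts all of family 5, with the vitamin carrier Slc5a6 among its listed genes and the iodide transporter Slc5a5 and choline transporter Slc5a7 among the unlisted. Carriers of vitamins and choline had 8 of 17 genes listed (47.1%, 23% to 72.2%), the family numbers grouped as nucleosides, nucleotide sugars and acetyl-CoA had 15 of 35 (42.9%, 26.3% to 60.6%), and the sugar families had 14 of 33 (42.4%, 25.5% to 60.8%). Amino acid and peptide carriers, at 13 of 47 (27.7%), and carriers of neurotransmitters, at 9 of 35 (25.7%), were near the background. Carriers of organic ions, bile acids and drugs, which act mainly in liver, kidney and gut, had 2 of 38 (5.26%, 0.644% to 17.7%). Among the 12 classes, 6 had a share above that of all protein-coding genes and 6 a share below it. The expressed carriers of MIN6 cells are not given in these tables, and the part that expression has in these shares was not tested.

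By family, 31 of the 49 families of the reference had at least 1 listed carrier. In 4 small families all genes were listed: both heavy chains of heteromeric amino acid transporters (Slc3a1 and Slc3a2), both phosphate cotransporters of family 20, both copper transporters of family 31, and the sole gene of family 50. Another 18 families, with 65 genes, had none. They included the sodium-proton exchangers of family 9, with 0 of 12 genes (interval up to 26.5%), the glutamate and neutral amino acid transporters of family 1, with 0 of 7 (interval up to 41%), the bile acid family 10, also with 0 of 7, and the vesicular amine transporters of family 18, with 0 of 4. With families this small, a count of 0 allows a share near that of all genes. Among the 49 families looked at, 3 had an interval that excludes the 26.4% of all protein-coding genes. Family 35 (51.9%, 31.9% to 71.3%) and family 44 (4 of 5, 80%, 28.4% to 99.5%) were above it. Family 22 was below it (2 of 25, 8%, 0.984% to 26%).

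**Figure D2:**
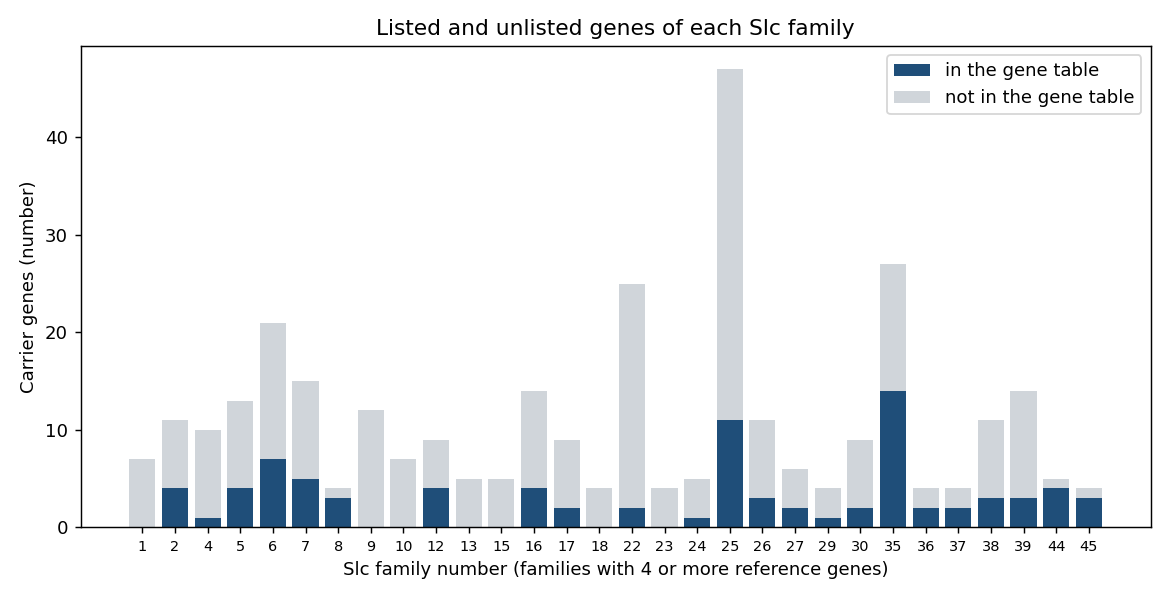
Number of carrier genes (y axis) in the gene table (dark) and not in it (light) for each Slc family with at least 4 reference genes (x axis, family number). Family 35 has 14 of 27 listed, family 25 has 11 of 47, family 22 has 2 of 25 and family 9 has 0 of 12.

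The nucleotide sugar family was the largest block of listed carriers. Some of these proteins carry activated sugars or sulfate donors into the endoplasmic reticulum and Golgi for glycosylation, the route that also processes granule and membrane proteins. In family 35, 14 of 27 genes were listed (51.9%, 31.9% to 71.3%). Of these 14, 6 are in the Gene Ontology term nucleotide-sugar transmembrane transport. Slc35c1, the Golgi GDP-fucose transporter, and Slc35e4 had 3 lines each. Slc35b2, a carrier of the sulfate donor PAPS, had 2 lines, as had Slc35a4 and Slc35a5. The other 9 had 1 line each: Slc35b1, an ATP/ADP exchanger of the endoplasmic reticulum, Slc35b3, the other PAPS carrier, Slc35d1, which brings UDP-sugars into the endoplasmic reticulum, Slc35c2, Slc35d2, Slc35d3, Slc35e3, Slc35f5 and Slc35g1. Slc35a1, Slc35a2 and Slc35a3, the transporters of CMP-sialic acid, UDP-galactose and UDP-N-acetylglucosamine, were not listed. Slc29a4, the plasma membrane monoamine transporter of the equilibrative nucleoside family, had 3 lines, while Slc29a1, Slc29a2 and Slc29a3 were absent, as was Slc33a1, the acetyl-CoA transporter.

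Among facilitative glucose transporters, 4 of 11 were listed, not counting Slc2a2, which is in the gene table and was left out by the rule. Slc2a1, which encodes GLUT1, had 1 line, and so had Slc2a7 and Slc2a8. Slc2a6 (GLUT6), a transporter of lysosomal membranes, had 4. Slc2a3 and Slc2a4, which encode GLUT3 and the insulin-responsive GLUT4, were not listed. The sodium-glucose family had 4 of 13: Slc5a11, a myo-inositol cotransporter, with 5 lines, Slc5a10 with 4, Slc5a2, the renal glucose cotransporter SGLT2, with 2, and Slc5a6, which carries biotin and pantothenate, with 1. The putative sugar transporters of family 45 had 3 of 4, with Slc45a4 on 6 lines, Slc45a1 on 5 and Slc45a2, a melanosomal protein, on 1. Slc37a1 had 2 lines, Slc37a3 had 1 and Slc50a1 had 1, while Slc37a4, the glucose-6-phosphate transporter of the endoplasmic reticulum, was not listed.

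Amino acid carriers included both heavy chains, which bring light chains to the cell surface. Slc3a2 (CD98), the partner of LAT1 in leucine uptake, had 1 line and Slc3a1 had 3. Of the light chains and cationic amino acid transporters, 5 of 15 were listed: Slc7a4 with 4 lines, Slc7a14 and Slc7a15 with 2, and Slc7a1, the arginine transporter CAT1, and Slc7a8, the light chain LAT2, with 1. Slc7a5, which encodes LAT1 itself, and Slc7a11, the cystine-glutamate exchanger, were absent. Slc36a1, the lysosomal and plasma membrane carrier PAT1, had 4 lines and Slc36a4 had 3. The sodium-coupled carriers Slc38a1 and Slc38a2 had 3 and 2 lines, and Slc38a8 had 1. Slc43a2, the system L-like carrier LAT4, had 3. Slc38a9, the lysosomal arginine sensor of mTORC1, and Slc1a5, a glutamine transporter, were not listed.

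Of the mitochondrial carriers, which exchange metabolites and nucleotides across the inner mitochondrial membrane, 11 of 47 were listed (23.4%, 12.3% to 38%). Slc25a28, an iron importer, and Slc25a29, a carrier of basic amino acids, had 3 lines each. Slc25a32, a carrier of folate and flavin cofactors, and Slc25a44, a carrier of branched-chain amino acids, had 2. The remaining 7 had 1 line each: Slc25a4, an ADP/ATP carrier, Slc25a11, the oxoglutarate carrier, Slc25a12, the aspartate-glutamate carrier aralar, Slc25a18 and Slc25a22, the glutamate carriers, Slc25a42, a carrier of coenzyme A, and Slc25a34. Slc25a12 and Slc25a11 are parts of the malate-aspartate shuttle, which brings cytosolic reducing equivalents into mitochondria. Slc25a13, the second aspartate-glutamate carrier, Slc25a1, the citrate carrier, Slc25a3, the phosphate carrier, and Slc25a5, another ADP/ATP carrier, were not listed.

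Metal carriers had 7 of 32 genes listed (21.9%), not counting Slc30a8, which is in the gene table and was left out by the rule. The copper importer Slc31a1 had 4 lines and its paralogue Slc31a2 had 3. Of the zinc transporters that lower cytosolic zinc, Slc30a4 had 2 lines and Slc30a6 had 1. Of those that raise it, Slc39a3 had 3 lines, and Slc39a6 and Slc39a8 had 1 each. Slc30a1, the zinc exporter of the plasma membrane, Slc39a7, which releases zinc from the endoplasmic reticulum, and Slc40a1, the iron exporter ferroportin, were absent.

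Ion carriers had 12 of 51 genes listed (23.5%). Of the 4 sodium-calcium exchangers of family 8, 3 were present, with Slc8a1 on 3 lines, Slc8a2 on 2 and Slc8a3 on 1. Slc24a2, a potassium-dependent exchanger, had 1. The cation-chloride cotransporters, which set the chloride level of the cell, had 4 of 9 listed, among them Slc12a8 with 3 lines, the importer Slc12a2 with 2 and the exporter Slc12a5 with 1. The anion exchangers of family 26 had Slc26a2, a sulfate transporter, on 3 lines and Slc26a6 and Slc26a10 on 1. Of 10 bicarbonate transporters, Slc4a10 was listed, with 1 line. Slc4a4, a bicarbonate cotransporter that regulates cytosolic pH, was not.

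Of the sodium- and chloride-dependent transporters of family 6, 7 of 21 were listed. Slc6a8, the creatine transporter, had 4 lines and Slc6a12, a betaine and GABA transporter, had 3. The dopamine transporter Slc6a3, the serotonin transporter Slc6a4, the taurine transporter Slc6a6, the vesicular Slc6a17 and the neutral amino acid transporter Slc6a19 had 1 each. Slc17a5, the lysosomal sialic acid exporter, and Slc17a8, the vesicular glutamate transporter VGLUT3, had 1 each. The vesicular transporters Slc17a6, Slc17a9, Slc18a1, Slc18a2 and Slc32a1, which load glutamate, nucleotides, monoamines and inhibitory amino acids, were not listed.

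The remaining classes were short. In the vitamin and choline class, Slc19a2, a thiamine transporter, had 2 lines, and the folate transporters Slc19a1 and Slc46a1, the riboflavin transporter Slc52a2 and the choline-like Slc44a1, Slc44a2, Slc44a3 and Slc44a4 had 1 each, which is 4 of 5 genes of family 44. Of the monocarboxylate transporters, Slc16a8 had 3 lines and Slc16a12, Slc16a13 and Slc16a14 had 1. Slc16a1 and Slc16a3, the lactate and pyruvate carriers MCT1 and MCT4, were absent. Slc27a4 had 2 lines and Slc27a3 had 1 among fatty acid transport proteins, and the phosphate cotransporters Slc20a1 and Slc20a2 had 1 each. Slc22a23, of the organic ion class, had 1. Of the members not counted as carrier genes, Slc7a6os had 4 lines, Slc39a1-ps had 2 and Slc22a13b-ps had 1.

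A list of 40 carriers with a known role in beta cells or nutrient signalling, from which the pair left out by the rule is missing, had 13 listed (32.5%, 18.6% to 49.1%). That interval includes the 26.4% of all protein-coding genes. The 13 were Slc2a1, Slc3a2, Slc7a1, Slc8a1, Slc12a2, Slc25a4, Slc25a11, Slc25a12, Slc25a22, Slc35b1, Slc36a1, Slc38a2 and Slc39a6. None of the other 27 had a line. Those not yet named include Slc25a10, the mitochondrial dicarboxylate carrier, the zinc transporters Slc30a5 and Slc30a7, the zinc and iron importer Slc39a14, and Slc15a4, a lysosomal carrier of histidine and peptides.

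The members filled 185 of the 17052 lines of the gene table. The table does not say what its lines represent, and the lines of a gene are identical, so that the table holds 9225 distinct lines for 9225 IDs. Of the 102 members, 59 had 1 line, 17 had 2, 16 had 3, 7 had 4, 2 had 5 and 1 had 6. Thus 43 members (42.2%, 32.4% to 52.3%) had more than 1 line, against 44.5% of all listed protein-coding genes and 44.4% of all listed IDs. The median was 1 line for the members, as for all listed IDs. The 10 genes with most lines were Slc45a4, Slc5a11, Slc45a1, Slc2a6, Slc5a10, Slc6a8, Slc7a4, Slc31a1, Slc36a1 and Slc7a6os. Of these, 5 are in the sugar class, which had 35 lines over its 14 genes. The median of that class was 1.5 lines, against 2 in the amino acid and peptide class and in the metal class. In the other classes it was 1 or 1.5. The share of genes with 4 or more lines was 9.80% among the members and 9.79% among all listed protein-coding genes.

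**Figure D3:**
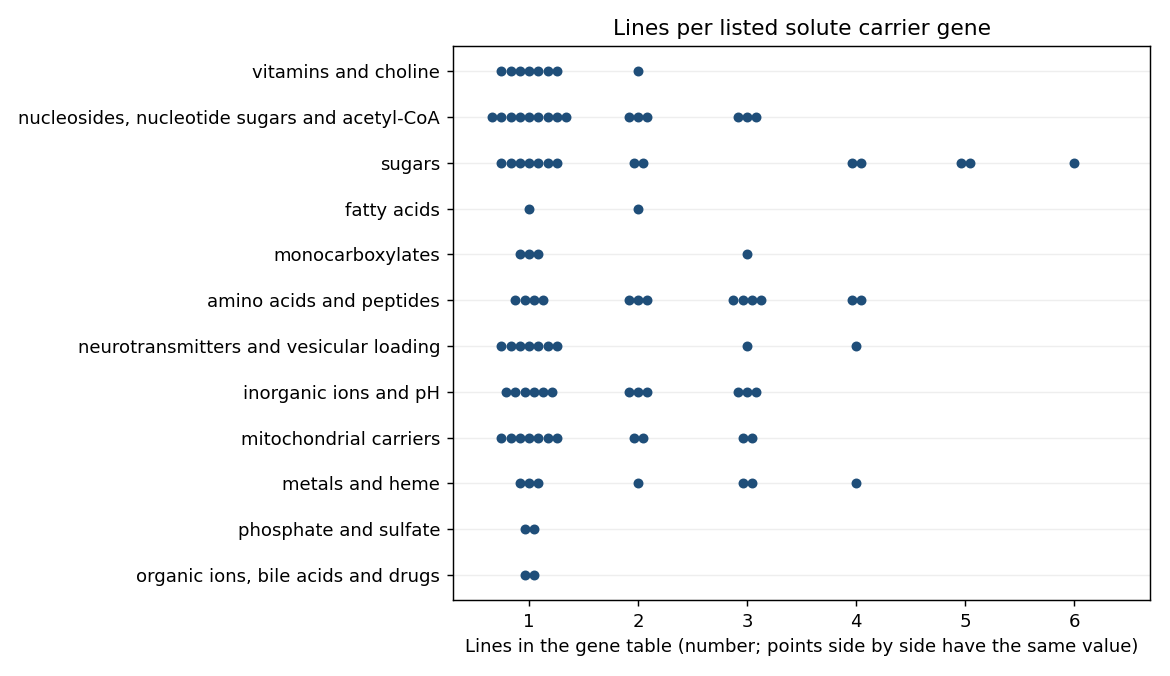
Lines in the gene table (x axis, number) of each of the 99 listed carrier genes, 1 point per gene, by substrate class. Most points lie at 1 line, and the points at 5 and 6 lines, for Slc5a11, Slc45a1 and Slc45a4, are all in the sugar class.

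Gene length showed little relation to the number of lines. Over the 99 listed carriers, Spearman's rho between gene length and lines was -0.06, against -0.09 over the 5526 listed protein-coding genes, as a description across genes that are not independent. Slc8a1, at 365 kb the longest listed carrier (chromosome 17, 81373105 to 81738387, GRCm38), had 3 lines, and Slc7a4, at 4.87 kb (chromosome 16, 17572018 to 17576890), had 4. The median length was 27 kb for listed carriers and 29.5 kb for the 266 that were not listed. In the first length quartile of all protein-coding genes, the shortest, 10 of 26 carriers were listed (38.5%, 20.2% to 59.4%), against 22.6% of all genes of that length. In the second quartile 31% of carriers were listed, against 32.9% of all. The third holds more carriers than any other quartile, and there 32 of 141 were listed (22.7%, 16.1% to 30.5%), against 28.3%. In the longest quartile 30 of 111 carriers (27%, 19% to 36.3%) were listed, against 21.8% of all. The shares of the carriers were above those of all genes in the shortest and longest quartiles and below them in the middle ones. In each quartile the interval of the carriers, 21.5% to 41.9% in the second, included the share of all genes.

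The table gives no strand and no position, so reads or peaks of overlapping genes cannot be told apart. By RefSeq coordinates, 8 members overlap another listed gene. No such count is given for all listed genes or for unlisted carriers, so the overlaps have no baseline. The heavy chain gene Slc3a1, of kidney and gut, and Prepl overlap by 1730 bases on chromosome 17 (85028347 to 85064241 for Slc3a1). Both had 3 lines. Slc26a10 (1 line) overlaps B4galnt1 (2 lines), and Slc5a10 (4 lines, chromosome 11, 61672782 to 61720817) contains Fam83g (2 lines). Among the 8, 4 overlap a listed long non-coding RNA gene: Slc39a8, Slc6a6, Slc7a14 and Slc8a3. Within 5 kb, 27 of the 99 listed carriers (27.3%, 18.8% to 37.1%) had another listed gene, against 80 of the 266 unlisted carriers (30.1%) and 35.4% of all listed protein-coding genes. As examples chosen after the values were seen, Slc35b2 lies 107 bases from Hsp90ab1, which encodes a chaperone of the HSP90 group, and Slc35a5 lies 156 bases from the autophagy gene Atg3, each with 1 line. The part of such neighbours in the listing of a carrier was not tested.

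There were 12 pairs of neighbouring carrier genes within 50 kb with at least 1 gene listed, and in 1 of them both were: Slc38a1 (chromosome 15, 96571418 to 96643438, 3 lines) and Slc38a2 (96687392 to 96699728, 2 lines), which lie 43954 bases apart. In the other 11 pairs 1 gene was listed, such as Slc6a12 and not Slc6a13, Slc36a1 and not Slc36a2, Slc25a29 and not Slc25a47, or Slc35b2 and not Slc29a1. Pairs with neither gene listed were not counted, so these numbers have no baseline. They do not show whether neighbours are listed together more or less often than other genes.

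The table also names protein domains, which the choice of members did not use. All 100 protein-coding members had a named domain and neither pseudogene had one. The major facilitator fold was named for 22 members, from families 2, 16, 17, 19, 22, 29, 37, 43, 45 and 46, and for 14 other listed IDs, among them the lysosomal Mfsd8 and Spns1 and the synaptic vesicle protein gene Sv2a. The mitochondrial carrier domain was named for the 11 genes of family 25 and for Ucp2, which encodes an uncoupling protein of the same fold. The sodium-neurotransmitter symporter domain was named for 7 members, all of family 6, and for no other gene of the table. Sugar phosphate transporter domains were named for 6 members of family 35. Slc3a1 and Slc3a2 carried a glycosyl hydrolase domain, as the heavy chains are known to do, and the sodium-calcium exchanger membrane region was named for Slc8a1, Slc8a2, Slc8a3 and Slc24a2.

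The deposited KEGG pathway table lists 32 of the 102 members in 44 of its 290 pathways, and the other 70 in none. In 31 of the 44 pathways the member was a single gene. Small p-values were the usual case: the authors' deposited table puts the adjusted p under 0.05 for 194 of all 290 pathways and for 35 of the 44 with a member. Slc2a1 and Slc8a1 were in 11 pathways each, Slc25a4 and Slc6a3 in 5 each. Protein digestion and absorption held most, with 9 members (Slc36a1, Slc38a2, Slc3a1, Slc3a2, Slc6a19, Slc7a8, Slc8a1, Slc8a2 and Slc8a3) of 17 input genes, with 90 background genes. Its p in the authors' deposited table was 0.518. Mineral absorption held 5 members (Slc26a6, Slc31a1, Slc46a1, Slc6a19 and Slc8a1) of 21 input genes, with 46 background genes. For it the authors' deposited table gives p = 0.00102. Choline metabolism in cancer held 5 members, among them the 4 listed genes of family 44, of 42 input genes, with 101 background genes, and the authors' deposited table gives p = 2.62e-05. Slc25a4 and the 3 sodium-calcium exchangers were in cGMP-PKG signaling, for which the authors' deposited table has p = 5.73e-06, and in calcium signaling. Vitamin digestion and absorption held 4 members (Slc19a1, Slc19a2, Slc46a1 and Slc5a6) of 7 input genes.

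For pathways closer to the beta cell, the members are given without Slc2a2 and Slc30a8, which the rule left out. The carriers in the background of each pathway were not counted, so these numbers have no baseline. Insulin resistance listed Slc2a1, Slc27a3 and Slc27a4 among 50 input genes, insulin secretion and glucagon signaling listed Slc2a1 alone, and mTOR signaling listed Slc3a2 alone among 84. The authors' deposited table gives p = 7.92e-07 for insulin resistance, 8.55e-05 for insulin secretion, 1.02e-06 for glucagon signaling and 1.51e-13 for mTOR signaling. Input genes are counted throughout as gene IDs, and several IDs can be assigned to the same gene. HIF-1 signaling, which also lists Slc2a1, has 102 input IDs for 110 background genes. The p-values may therefore rest on fewer distinct genes than the counts show. These p-values are for whole pathways and not for their carriers.

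KEGG input counts also held Ensembl IDs that are not carrier genes by name but were assigned a carrier's Entrez gene. There were 6 such unnamed models. Gm12868, with 2 lines, was assigned to Slc2a1 and counted beside it in all 11 pathways of Slc2a1, so each of these counts Slc2a1 as 2 input IDs. A530020G20Rik was assigned to Slc44a3, which lies 600 bases away. The other 4 stood for carriers that were not in the gene table themselves: 1700034H15Rik with 4 lines for Slc30a1, which it overlaps by 830 bases, Gm26850 with 2 lines for Slc33a1, Gm17080 for Slc29a1 and Gm11788 for Slc25a10. Through them Slc30a1 was counted in mineral absorption and Slc33a1 in metabolic pathways.

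The deposited Gene Ontology (GO) table lists 100 of the 102 members, all but the pseudogenes, in 1741 of its 16568 terms, with a median of 68 terms per member. Every term has p = 1 in the authors' deposited table, so terms were not ranked by p. The gene lists of the table hold 5409 distinct IDs, 26% of the 20770 background genes, and shares are read beside that value. The total of genes with a peak that the authors deposited is larger, at 10022 for the same 20770. Their own baseline is therefore higher than 26%, and a share above 26% need not lie above it. Among terms with 10 to 500 background genes, anion transmembrane transporter activity held most members, 49 of its 69 listed genes, with 305 in the background (22.6%). Symporter activity, the coupled uptake of 2 solutes, had 36 of 136 genes listed (26.5%, 19.3% to 34.7%), of which 34 were members. Antiporter activity, their exchange, had 12 of 65 (18.5%), of which 11 were members. The share of symporters lies near the 26% of all background genes.

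**Figure D4:**
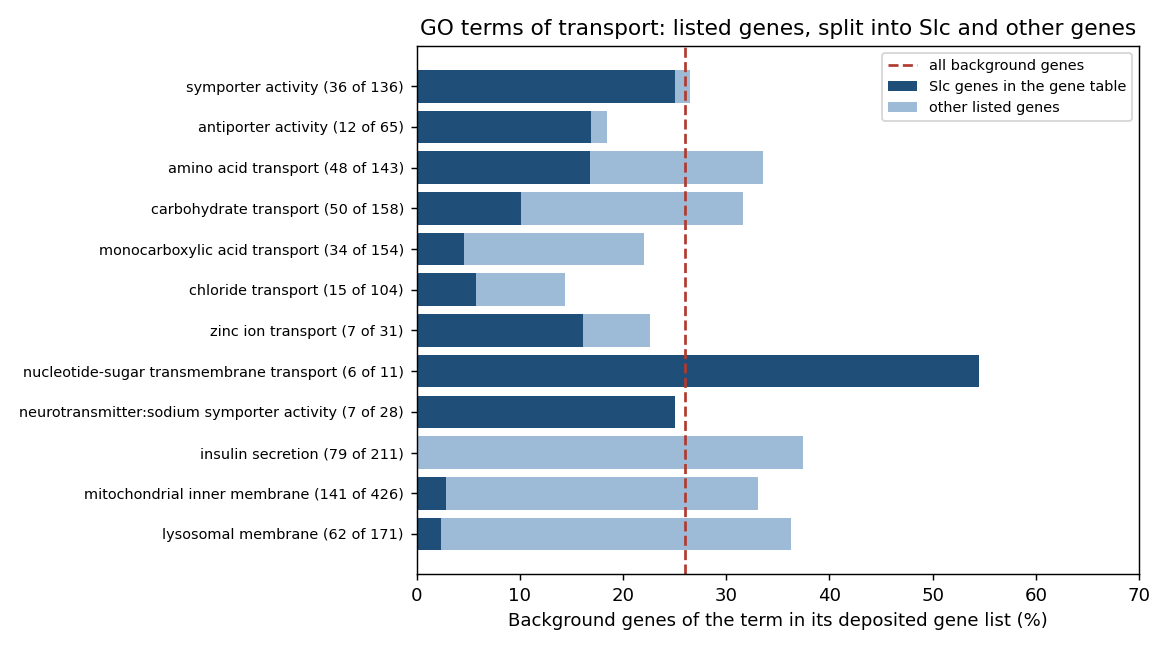
Share of the background genes of 12 GO terms that is in the deposited gene list of the term (x axis, percent), split into Slc genes described here (dark) and other listed genes (light), with the numbers beside each term and the share of all background genes (26%) as a dashed line. Nucleotide-sugar transmembrane transport is highest at 54.5% and chloride transport lowest at 14.4%. Insulin secretion holds no Slc gene of this set, from which Slc30a8 and Slc2a2 were left out by the rule.

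Terms for single substrates, chosen after their counts were seen, differed in their shares. Amino acid transport had 48 of 143 genes listed (33.6%, 25.9% to 41.9%), 24 of them members, and carbohydrate transport 50 of 158 (31.6%, 24.5% to 39.5%), 16 of them members. Nucleotide-sugar transmembrane transport had 6 of 11 (54.5%, 23.4% to 83.3%), all members: Slc35a4, Slc35a5, Slc35b1, Slc35c1, Slc35c2 and Slc35d1. Zinc ion transport had 7 of 31 (22.6%), with Slc30a4, Slc30a6, Slc39a3, Slc39a6 and Slc39a8. Chloride transport had 15 of 104 (14.4%, 8.30% to 22.7%), with members such as Slc12a2, Slc12a5, Slc12a8, Slc26a2 and Slc26a6. Neurotransmitter:sodium symporter activity had 7 of 28 (25.0%), all members of family 6.

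By compartment, 54 members were in the term plasma membrane, whose share of listed genes was 18.7% (1130 of 6043). The mitochondrial inner membrane held 12 members, the 11 of family 25 and Slc3a1, and had 141 of 426 genes listed (33.1%). The Golgi membrane held 8 members, among them Slc35a4, Slc35a5, Slc35b1, Slc35b2, Slc35b3 and Slc35c1, with a share of 34.5%. The lysosomal membrane held Slc17a5, Slc30a4, Slc36a1 and Slc7a14, with a share of 36.3% (29.1% to 43.9%), and synaptic vesicle held Slc17a5, Slc17a8, Slc2a8 and Slc6a17. Broader terms had shares near those of the organelles, with 31.2% for intracellular, 33.2% for membrane-bounded organelle and 32.2% for organelle membrane. The terms insulin secretion (79 of 211 genes listed), glucose homeostasis (105 of 273), autophagy (132 of 367) and response to glucocorticoid (51 of 181) held 0 of the 102 members. Slc30a8 and Slc2a2, which are in the gene table, were left out by the rule, and these counts do not cover them. The Slc genes in the background of each term were not counted, so a count of 0 has no baseline here.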

How the data were processed

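RNA from MIN6 cells with a control or GR vector was sequenced as input and after m6A immunoprecipitation, 1 library of each kind per arm. Per the submitters' processing notes, the tools included HOMER 4.9.1 and BWA 0.7.12, with build mm10. The caller of differential peaks and its thresholds are not given in the sources used here. The gene table deposited by the authors has no header and gives an Ensembl ID, a symbol and domain names per line. The GO and KEGG tables hold, per the file headers, counts of genes and p-values deposited by the authors, those of KEGG by a hypergeometric or Fisher exact test with Benjamini-Hochberg adjustment. In the GO table, 63 overflow lines of gene lists were joined to their terms.

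Symbols came from the gene table, else from a table of Ensembl IDs that matched 9217 of the 9225 IDs. The reference was the RefSeq protein-coding genes of assembly GRCm38.p6 (mm10), whose symbol is in that table. From 369 Slc symbols, 4 genes named after a carrier that encode none (Slc7a6os, Slc9a3r1, Slc9a3r2 and Slc4a1ap) were set aside, which left 365; the last 3 were set aside after the first values were seen, as was the limit to symbols in that table. Classes were set by family number. Intervals are exact Clopper-Pearson intervals at 95%. Genes were named by family (3 or more listed), by most lines (the first 10), by the beta-cell list and by the KEGG and GO rows that hold most members. The remaining members, unlisted genes of other families, and single GO terms were added after the values were seen. The members and lists were chosen with earlier results of these data known. Some genes of these lists are counted in the totals and not reported here by name. No test between conditions was made. Alternatives were symbol sources, inclusion of the left-out genes, Slco genes and older symbols, identical lines counted once, and limits on pathways and terms. Software versions were SciPy 1.17.1, NumPy 2.4.6, Matplotlib 3.10.9 and Python 3.11.15, and the counting was tested on simulated data.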

Additional observations from a re-analysis of the deposited data

How the results depend on the processing

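Of 19 alternatives, 16 stayed within 1.5 times of a count or within the interval of a share. The number of members ran from 99 to 104 and the share of listed Slc genes from 26.6% with Slco genes to 27.5% with the 2 left-out genes kept. Older symbols, added after seeing the data, brought in Slc66a1 (listed as Pqlc2) and Slc49a4 (listed as Dirc2) and gave 27.3%. The other 3 changes follow from how the alternative is built: the 43 genes on 2 or more lines became 0 when identical lines were counted once, and the 1741 GO terms became 576 with at least 3 members and 997 with 10 to 500 background genes. Depth is unknown and sets no limit that could be computed. No paired analysis was possible because each arm had 1 library of each kind and the tables hold no value per library.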

Other observations

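Carriers outside the Slc names were also listed. Ucp2, a mitochondrial uncoupling protein that carries the synonym Slc25a8 and restrains insulin release in beta cells, had 2 lines. The organic anion transporter gene Slco3a1 had 2 lines, and Pqlc3, which has the synonym Slc66a3, had 1. Pqlc2 and Dirc2, the lysosomal proteins now named Slc66a1 and Slc49a4, had 1 line each.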
